A study of Homo sapiens with 12 samples.

Results

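The protease-activated receptors are a family of 4 genes, F2R (PAR1), F2RL1 (PAR2), F2RL2 (PAR3) and F2RL3 (PAR4). They were taken by symbol from a table of 38019 genes in HEK293T cells, a human embryonic kidney line, and all 4 symbols were found once. The family was chosen from F2RL2 values in this table, because its counts were near 0 in every condition but one, so the levels of F2RL2 are given as a description and carry no test. F2R, F2RL1 and F2RL3 came with it as the rest of the family, and their own values did not enter the choice.

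Protease-activated receptors are G protein-coupled receptors that carry their own ligand. A serine protease cuts the extracellular N-terminus, and the new end folds back onto the receptor and switches it on. Thrombin, the last protease of the clotting cascade, cuts PAR1, PAR3 and PAR4, while trypsin, tryptase and coagulation factors VIIa and Xa act on PAR2. PAR1 is the main thrombin receptor of human platelets with PAR4, and PAR3 is known in mouse platelets as a cofactor that presents thrombin to PAR4. Signalling described for the family as a whole runs through Gq, G12/13 and Gi proteins, and whether PAR3 signals by itself was not tested here. Activated receptors are then taken up and degraded, since the cut cannot be undone.

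The study compared NRF1, NRF2 and NRF3, cap'n'collar transcription factors that bind antioxidant response elements together with small MAF proteins. HEK293T cells were transiently transfected with an empty vector or with a FLAG-tagged transgene, and RNA was taken 24 h later, with 3 libraries per condition that the study calls biological triplicates. The NRF2 transgene carried the mutation T80D, which weakens binding of the repressor KEAP1, and the NRF1 and NRF3 transgenes were codon-optimized and truncated so that they lacked the N-terminal part that holds the proteins at the endoplasmic reticulum. All 4 conditions share the transient transfection and the cell line. The NRF1, NRF2 and NRF3 transgenes share an expression backbone, while that of the empty vector is not given in the sources used here. Since cells that took up plasmid and cells that did not were sequenced together, more cells expressing a gene and more RNA per cell cannot be told apart.

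The deposited values were treated as counts, although the study's supplement heads such values RPKM. The libraries were of nearly equal depth, with 13452524 to 14014316 counts each, of which 15135 genes had enough counts to be tested. Values are given as counts, or as CPM (a gene's count divided by the library size, in parts per 1e+06, with library sizes adjusted by the TMM method). The replicate libraries differed most in NRF3, where the median SD of log2 CPM was 0.187, against 0.0884 in empty vector, 0.105 in NRF1 and 0.122 in NRF2. NFE2L2, the gene of NRF2, had 133115 to 158028 counts in the NRF2 libraries and 1210 to 1367 counts in the other 9. NFE2L1 and NFE2L3 were not called higher in their own transgene's libraries (log2 fold change 0.12, edgeR adjusted p = 0.602, and 0.15, adjusted p = 0.994), and whether reads of the codon-optimized sequences were counted under these genes was not tested. The labels of the NRF1 and NRF3 libraries are therefore not checked by the transfected gene. The 10 kidney and epithelial markers set for HEK293T cells summed to 518 to 704 CPM, with 676 to 701 CPM in empty vector and 518 to 553 CPM in NRF2. VIM, which makes up most of that sum, had 6426 to 6648 counts with empty vector and 4536 to 5057 with NRF2, while KRT18 had 391 to 427 and 491 to 534. Over all libraries CDH2 had 1511 to 2164 counts, CDH1 12 to 28 and EPCAM 6 to 21. PAX8, with 0 to 1 counts, was the 1 marker of the 10 that stayed at 10 counts or fewer. With NRF2, 1 of the 9 tested markers was called higher and 1 lower, beside 10.5% of all genes called in either direction. The median log2 fold change of the 9 was 0.06. Of the 10 markers each, 8 megakaryocyte and platelet, 8 endothelial, 6 leukocyte and 6 mesenchymal genes stayed at 10 counts or fewer in every library. Those 4 lists summed to 3.20 to 6.10, 19.8 to 24.0, 3.64 to 6.78 and 17.8 to 28.2 CPM, with overlapping ranges between NRF2 and empty vector in the platelet, leukocyte and mesenchymal lists and 22.1 to 24.0 against 19.8 to 22.0 CPM in the endothelial one. Their part in the results below was not tested.

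F2RL2, which encodes PAR3, was the member that stood apart. It had 280, 220 and 207 counts in the 3 NRF2 libraries. The 3 empty vector libraries held 0, 3 and 1 counts, those of NRF1 held 0, 4 and 0, and those of NRF3 held 1, 0 and 2. The lowest NRF2 library thus lay far above the highest of the other 9 libraries, which together held 11 counts and of which 4 held none. On the CPM scale F2RL2 was at 16.8 ± 2.47 (SD, n = 3) with NRF2, above 45.8% of all tested genes in those libraries. The mean was 0.0978 ± 0.112 CPM with empty vector, 0.0968 ± 0.168 CPM with NRF1 and 0.0756 ± 0.0756 CPM with NRF3 (SD, n = 3 each), 3 levels that did not differ beyond their spread. Over 3 libraries each, F2RL2 counts summed to 707 in NRF2 and to 4, 4 and 3 in the other conditions, and the CPM ratio was 172 over empty vector (95% counting interval 66.8 to 632), 174 over NRF1 (67.6 to 640) and 226 over NRF3 (76.9 to 1096). These intervals are exact and cover counting error only, not the spread between experiments, and their width comes from the few counts in the lower group. Without NRF2 replicate 1 the mean in NRF2 was 15.4 CPM, and without replicate 3 it was 17.7 CPM.

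Within the 3 NRF2 libraries F2RL2 was highest in replicate 1. The exact Poisson 95% intervals, which cover counting error only, were 248 to 315 around 280 counts in replicate 1, 192 to 251 around 220 in replicate 2 and 180 to 237 around 207 in replicate 3. The coefficient of variation was 14.7% and the highest library was 1.31 times the lowest in CPM. NFE2L2 had 133115, 143786 and 158028 counts in the same libraries, so the library with the most F2RL2 had the fewest counts of the transfected gene.

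**Figure D1:**
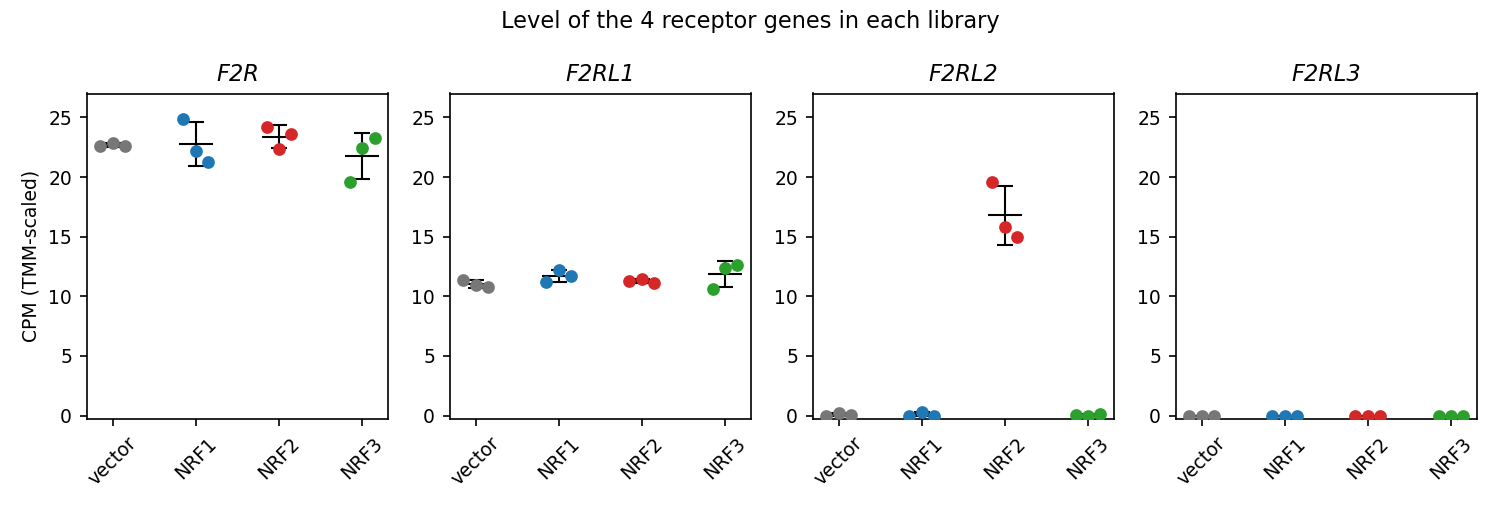
CPM of each receptor gene (vertical axis, TMM scaling) in the 12 libraries, grouped by condition, with each library as a point and the mean ± SD of 3 libraries as a bar. F2RL2 lies at 15.0 to 19.6 CPM in the NRF2 libraries and near 0 elsewhere, F2R and F2RL1 lie at similar levels in all conditions, and F2RL3 is at 0 in every library.

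The start of F2RL2 holds a heptamer, TGACTCA, which is the binding motif of AP-1 factors and is shared in part by the antioxidant response element. The promoter windows were 300 bases, from 250 before to 50 after the RefSeq start (GRCh38.p14), and 3 of the 4 receptor genes had an entry, F2RL2, F2RL1 and F2RL3. TGACTCA was searched on both strands, and 4.95% of 35116 promoters of that length held it. In F2RL2 (chr5:76623354-76623653, minus strand) it stood once, at bases -37 to -31 from the start, and read TGACTCA on the strand opposite to the gene. GENCODE v29 places the start of F2RL2 31 bases further upstream, which is at the edge of the motif. The core of the antioxidant response element was searched as TGACNNNGC and as TGAGNNNGC on both strands. These letters are in 13.3% and 18.3% of all promoters, and 29.1% hold either. Neither was in the F2RL2 window. The F2RL1 window (chr5:76818780-76819079, plus strand) held TGAGNNNGC once and no TGACTCA, and the F2RL3 window (chr19:16888749-16889048, plus strand) held none of the 3 motifs. The F2RL2 window was the poorest in CpG of these, with 5 CpG and 44.7% GC, against 31 CpG and 69.0% GC in F2RL1 and 11 CpG and 67.3% GC in F2RL3. Of all promoters, 66.3% held more CpG than that of F2RL2, and the median was 14.

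The stretch of F2RL2 that holds the heptamer is shown with those of OSGIN1 and HPD, which are named below among the genes most like F2RL2 and whose windows contain the same letters. Each is read 5′ to 3′ on the strand that carries TGACTCA, in capitals, with 10 bases on either side where the window allows. F2RL2 is chr5:76623424-76623450 on the plus strand, OSGIN1 is chr16:83953133-83953159 on the plus strand and HPD is chr12:121888562-121888579 on the minus strand (RefSeq, GRCh38.p14).
F2RL2: tcagtaagcaTGACTCAggccaagcct
OSGIN1: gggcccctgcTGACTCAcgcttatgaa
HPD: tcgccccagcTGACTCAt

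The heptamer lies at bases -97 to -91 in OSGIN1 and at 43 to 49, within the transcript, in HPD. In both it follows the bases gc, so on the other strand it is also a match to TGAGNNNGC. In F2RL2 the heptamer follows ca and is followed by gg, and it matches neither core. Of all 14 genes named below as most like F2RL2 or switched on with it, 11 had a promoter entry, 3 of them with 2 start windows that were both searched, while 3 of the 11 held TGACTCA and 8 held a core of the antioxidant response element. Both the 11 and the 8 include NFE2L2, the transfected gene. The 3 with TGACTCA are OSGIN1, HPD and LUCAT1. In each the heptamer lies within a core match, so the 3 are also among the 8 and the counts are not separate. The shares over all promoters, 4.95% for TGACTCA and 29.1% for either core, are per window. Genes with 2 windows were searched over more bases, so the counts and these shares are not alike. These matches describe the letters and are no measure of binding.

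F2R, which encodes PAR1, had the highest level per exon length of the family in every condition (5.36 to 5.75 CPM per kilobase) and did not pass the test in any comparison. It had 308, 312 and 306 counts with empty vector, 343, 305 and 293 with NRF1, 346, 310 and 327 with NRF2, and 259, 309 and 308 with NRF3. As counts, the lowest NRF2 library (310) lay just above the highest NRF3 library (309). On the CPM scale the range of every condition overlapped with those of the others, and the coefficient of variation over all 12 was 6.02%. The mean level was 23.4 ± 0.979 CPM with NRF2, 22.8 ± 1.86 with NRF1, 22.7 ± 0.152 with empty vector and 21.8 ± 1.95 with NRF3 (SD, n = 3 each), and no 2 neighbours in that order differed by more than the larger SD. The log2 fold change over empty vector was 0.01 with NRF1 (SE 0.09, 95% interval -0.19 to 0.20, edgeR adjusted p = 0.985). It was 0.04 with NRF2 (SE 0.09, -0.15 to 0.24, adjusted p = 0.813) and -0.06 with NRF3 (SE 0.09, -0.25 to 0.14, adjusted p = 0.994).

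F2RL1, which encodes PAR2, likewise did not pass the test anywhere. It had 155, 150 and 146 counts with empty vector, 154, 168 and 161 with NRF1, 161, 159 and 154 with NRF2, and 140, 170 and 167 with NRF3. The lowest and the highest library were both NRF3 libraries, and the coefficient of variation over all 12 was 5.58%. The mean level was 11.9 ± 1.11 CPM with NRF3, 11.7 ± 0.519 with NRF1, 11.3 ± 0.157 with NRF2 and 11.05 ± 0.318 with empty vector (SD, n = 3 each), again with neighbours that did not differ beyond the larger SD. The log2 fold change over empty vector was 0.08 with NRF1 (SE 0.10, -0.13 to 0.30, edgeR adjusted p = 0.733), 0.03 with NRF2 (SE 0.10, -0.19 to 0.25, adjusted p = 0.894) and 0.10 with NRF3 (SE 0.10, -0.11 to 0.32, adjusted p = 0.994).

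The direct comparisons between transgenes gave no call for either gene. F2R differed by 0.04 in NRF2 against NRF1 (-0.16 to 0.23, edgeR adjusted p = 0.939), by 0.10 in NRF2 against NRF3 (-0.09 to 0.30, adjusted p = 0.560) and by 0.06 in NRF1 against NRF3 (-0.13 to 0.26, adjusted p = 0.790) on the log2 scale. F2RL1 differed by -0.05 (adjusted p = 0.920), -0.07 (adjusted p = 0.726) and -0.02 (adjusted p = 0.949) in the same comparisons. Over all 15135 genes, 1.75% were called in NRF1 against empty vector, 10.5% in NRF2 and 0.0264% in NRF3, and 1.25% in NRF2 against NRF1, 5.17% in NRF2 against NRF3 and 0.396% in NRF1 against NRF3, beside which 0 of 2 receptors were called in each. None of these 12 tests had an unadjusted p under 0.05, and DESeq2 called none. The test leaves room for modest differences: for NRF2 over empty vector the intervals reach from 0.901 to 1.18-fold in F2R and from 0.879 to 1.19-fold in F2RL1. The 3 comparisons with empty vector share the same control libraries.

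**Figure D2:**
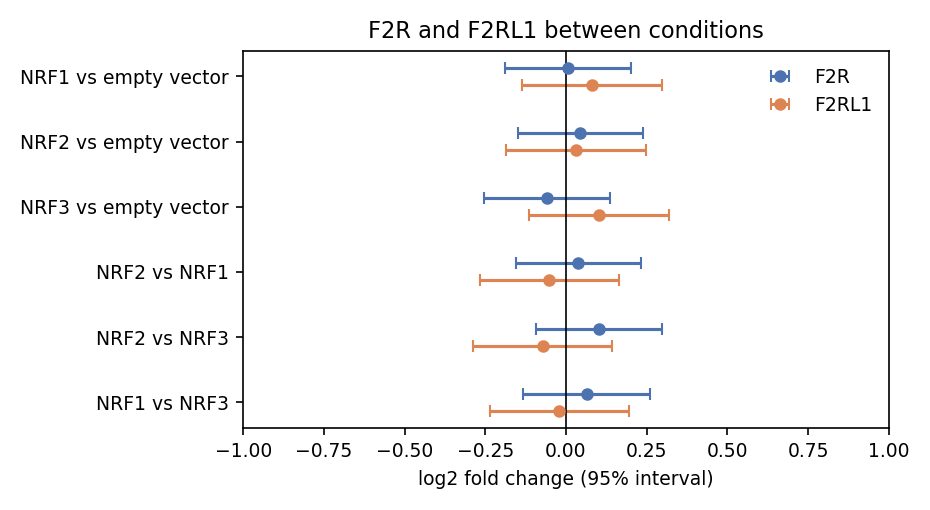
Log2 fold change of F2R and F2RL1 (horizontal axis, points) with the 95% interval of edgeR's quasi-likelihood fit (bars) in the 6 comparisons between conditions, 3 libraries each. Every interval spans 0, and no estimate lies beyond 0.103 on either side.

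F2RL3, which encodes PAR4, had 0 counts in all 12 libraries. A count of 0 in a library leaves room for a level of up to 3 counts, or 0.210 to 0.227 CPM. This is an upper limit for a single library and not a detection limit. The 12 libraries together set a lower limit, which was not worked out. It was the member that could not be tested.

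The receptor make-up per unit of transcript length differed between conditions through F2RL2. The GENCODE v29 exons span 4066 bases in F2R, 2958 in F2RL1, 3429 in F2RL2 and 3473 in F2RL3. On the scale of CPM per kilobase of exon, F2RL2 was at 4.90 ± 0.719 with NRF2 (SD, n = 3), between F2R at 5.75 and F2RL1 at 3.81 in the same libraries. With empty vector the levels were 5.58 for F2R, 3.73 for F2RL1 and 0.0285 for F2RL2. F2RL2 took 33.8% ± 2.87 of the family's length-scaled CPM with NRF2 (31.3% to 36.9% over the 3 libraries). Its share was 0.305% in empty vector, 0.292% in NRF1 and 0.234% in NRF3. F2R took 59.7% with empty vector and 39.8% ± 1.68 with NRF2, and F2RL1 40.0% and 26.4% ± 1.61. These shares add to 100%, and the lower shares of F2R and F2RL1 with NRF2 stand beside unadded levels of 5.75 and 3.81 that lie above those with empty vector.

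**Figure D3:**
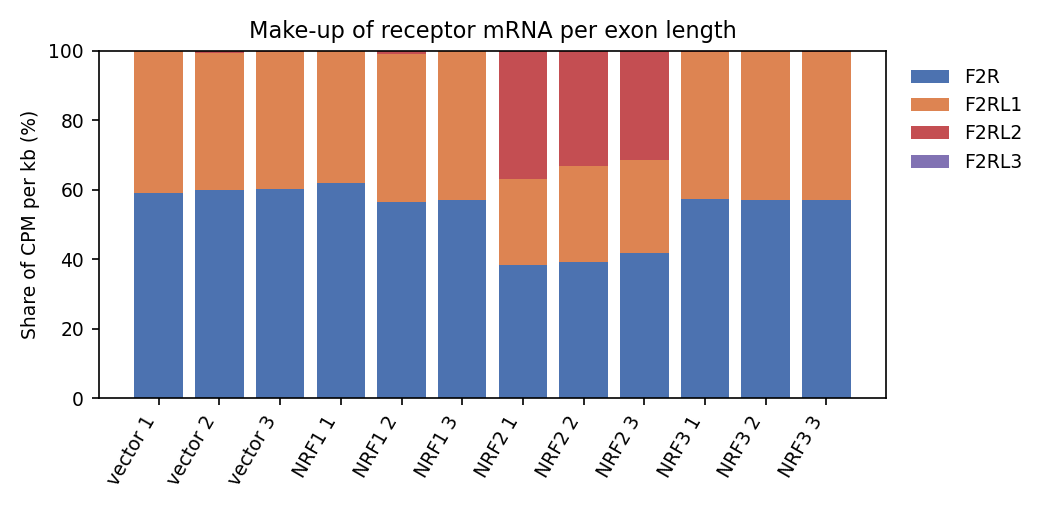
Share of each receptor gene in the family's CPM per kilobase of exon (vertical axis, percent) in the 12 libraries. F2RL2 makes up 31.3% to 36.9% in the NRF2 libraries and F2R with F2RL1 nearly all of the rest, and F2RL3 has no share.

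F2RL2, F2R and F2RL1 neighbour each other on chromosome 5, and none of the tested genes around them was called in the comparisons with empty vector. The 5 genes on each side of F2RL2, F2RL1 and F2RL3 and of F2R make 22 distinct neighbours in RefSeq order, of which 12 were in the table and 6 could be tested. In the comparisons with empty vector 0 of 6 were called by edgeR, beside 1.75%, 10.5% and 0.0264% of all genes with NRF1, NRF2 and NRF3, so that 0 of 6 says little about these genes. The unadjusted p was under 0.05 for 0 of the 6, and DESeq2 called 0. The untested ones had at most 5 counts in any library. IQGAP2, a scaffold protein that binds actin and calmodulin, had 420 to 671 counts and was at -0.08 on the log2 scale with NRF2 (SE 0.13, edgeR adjusted p = 0.761). AGGF1, an angiogenic factor that lies beyond F2RL1, was at 0.05 (SE 0.08, adjusted p = 0.723). NCRUPAR, a long non-coding RNA beside F2R, had 0 to 1 counts. F2RL2 lies on the minus strand and IQGAP2 on the plus strand. IQGAP2 starts before F2RL2 in RefSeq order, with other genes between the starts, and reaches into F2RL2. Their exons overlap by 87 bases, 2.54% of the F2RL2 exons. Whether counting used strand is not given in the sources used here, and the part of these shared bases in the F2RL2 counts was not tested. F2RL2 had at most 4 counts in 9 libraries, and IQGAP2 had at least 420 in every library. Near F2RL3 on chromosome 19, SIN3B, a transcriptional corepressor, had 544 to 863 counts and HAUS8, a subunit of the augmin complex, 253 to 325.

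The genes whose log2 CPM followed F2RL2 most closely over the 12 libraries were CBR3, OSGIN1, TRIM16L, TXNRD1, HPD, NFE2L2, SRXN1, FBXO30, FTL and NQO1, with Pearson r from 0.977 to 0.988 among 15134 genes. The 12 points share 3 high libraries, so r mostly records that a gene is high in NRF2 and level elsewhere, and it is given without a test. By Spearman rank, which weighs the near-0 libraries as much as the rest, only CBR3 stayed among the top 10. CBR3, a carbonyl reductase, had 150 to 162 counts with NRF2 and 31 to 52 in the other libraries, and its mean went from 3.09 CPM with empty vector to 11.1 CPM with NRF2. OSGIN1, an oxidative stress-induced growth inhibitor, had 777 to 930 counts with NRF2 and 3 to 14 elsewhere. TXNRD1, thioredoxin reductase, was at 119 CPM with empty vector and 567 CPM with NRF2. SRXN1, sulfiredoxin, was at 8.72 and 76.2 CPM, NQO1, a quinone reductase, at 7.37 and 48.4 CPM, and FTL, the ferritin light chain, at 180 and 487 CPM. FBXO30, an F-box protein, was at 36.8 and 138 CPM. TRIM16L was at 8.21 and 66.1 CPM and is uncertain because TRIM16 is nearly identical to it. F2RL2 was near 0 with empty vector, and the lowest of the others there were HPD, an enzyme of tyrosine breakdown, at 0.269 and 5.02 CPM, and OSGIN1 at 0.661 and 61.3 CPM.

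F2RL2 was counted among genes that were nearly silent in all but the 3 libraries of a condition. A rule of at most 10 counts in the other 9 libraries and at least 50 in each of the 3 picked 6 of 38019 genes for NRF2, 1 for empty vector, and 0 for NRF1 and 0 for NRF3. F2RL2 led the NRF2 genes with a mean of 236 counts. AKR1B10 had 81 to 99 counts with NRF2 and at most 2 elsewhere, and AKR1C1 had 73 to 98 and at most 7. Both are aldo-keto reductases that reduce carbonyl compounds, and AKR1C1 shares nearly identical sequence with AKR1C2, so its counts are uncertain. LUCAT1, a long non-coding RNA, had 77 to 93 counts and at most 1 elsewhere, HPD 65 to 77 and at most 6, and TMC2, a channel protein of inner-ear hair cells, 59 to 74 and at most 1. F2RL2 was the only receptor among the 6. The gene picked for empty vector was GH2, the placental growth hormone, with 62 to 89 counts there and 0 to 1 in the other 9. With at most 20 counts elsewhere and at least 30 in each, NRF2 had 16 genes, and with at most 5 and at least 100 it had F2RL2 alone. The rule was built around F2RL2, so its rank is a description.

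**Figure D4:**
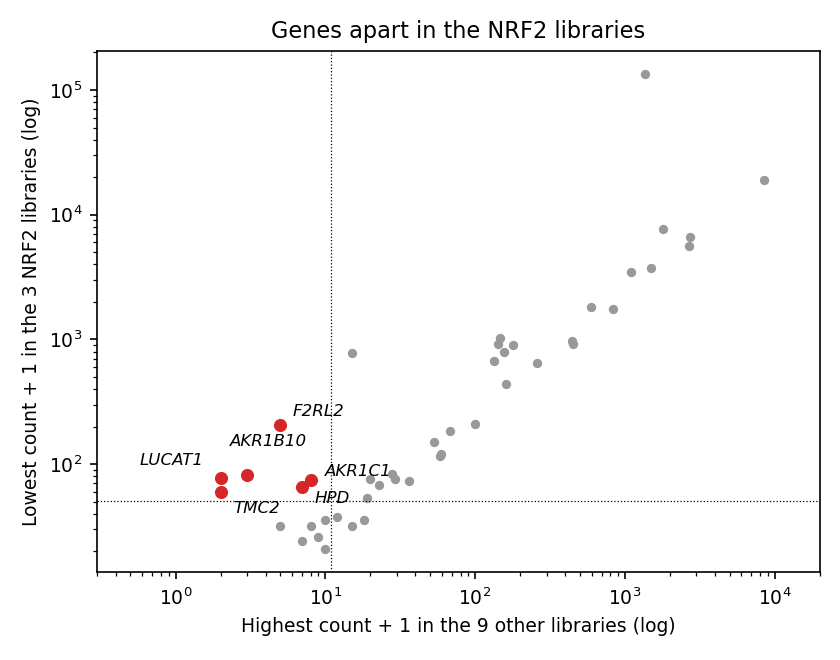
Lowest count plus 1 in the 3 NRF2 libraries (vertical log axis) against the highest count plus 1 in the other 9 libraries (horizontal log axis) for the 45 genes with at least 20 counts in each NRF2 library and over 2 times the highest count elsewhere. Red points are the 6 genes within the dotted limits of at most 10 and at least 50 counts, and F2RL2 stands highest among them.

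Proteases listed for the receptors had mostly few or no counts in these cells. The list was broad and was not limited to proteases that activate a receptor directly. Of its 40 proteases, 7 could be tested and 7 had no count in any library. F2, the gene of thrombin, had 0 to 5 counts, F10 1 to 4, PROC, the gene of protein C, 0 to 2, PLG, the gene of plasminogen, 0 to 1, ST14, the gene of matriptase, 0 to 5, and F7 and GZMK none. CAPN1, a calpain, and ADAM17, a membrane sheddase, were the opposite, at 1270 to 1630 and 467 to 655 counts. Of the 7 tested, 0 were called with NRF1, 2 with NRF2 and 0 with NRF3, beside 1.75%, 10.5% and 0.0264% of all genes, and 3 were called with NRF2 when low counts were not filtered. PLAT, the gene of tissue plasminogen activator, fell from 47.8 to 32.3 CPM with NRF2 (log2 fold change -0.56, SE 0.08, edgeR adjusted p = 0.000145), and no library's removal ended the call. MMP2, a gelatinase, rose from 4.83 to 7.21 CPM (0.58, SE 0.15, adjusted p = 0.0230), but removal of replicate 1 or 2 of empty vector, or of either of these in NRF2, ended the call (log2 fold change 0.47 to 0.62, adjusted p up to 0.120). An unequal variance test on log2 CPM with Benjamini-Hochberg adjustment, which called 82 genes with NRF2 in all, called neither of these nor any of the other list genes named below. The median log2 fold change of the list was 0.05 with NRF1, 0.07 with NRF2 and -0.11 with NRF3, where that of all genes was -0.01, 0.00 and 0.00.

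Among 17 coagulation cofactors and surface receptors, 10 were tested and 1 was called, with NRF2, beside 10.5% of all genes. F3, the gene of tissue factor that starts clotting with factor VIIa, had 29, 20 and 35 counts with empty vector and 51, 60 and 62 with NRF2, without overlap. Its mean rose from 2.06 ± 0.561 to 4.12 ± 0.486 CPM (SD, n = 3 each; log2 fold change 1.00, SE 0.20, edgeR adjusted p = 0.00464), and the call held without any library. PROCR, the endothelial protein C receptor, had 105 to 167 counts and PLAUR, the urokinase receptor, 76 to 111 over all libraries, and THBD, the gene of thrombomodulin, had at most 10. Of 23 protease inhibitors 10 were tested and 1 was called, with NRF2, again beside 10.5% of all genes. SERPINI1, the gene of neuroserpin that inhibits tissue plasminogen activator, rose from 105 to 123 counts with empty vector to 159 to 211 with NRF2 (0.63, SE 0.14, adjusted p = 0.00890), though its adjusted p was up to 0.0529 without empty vector replicate 3 or NRF2 replicate 2. SERPINE2, the gene of protease nexin-1 that inhibits thrombin, had 695 to 824 counts. The list's median was 0.05, 0.18 and 0.07 on the log2 scale with NRF1, NRF2 and NRF3.

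The machinery on the inner side of the receptors was expressed in all conditions. Of 30 G proteins and direct effectors, 28 were tested and 0, 2 and 0 were called with NRF1, NRF2 and NRF3. The 2 called with NRF2 stand beside 10.5% of all genes, and 4 were called with no filter on low counts. GNA13, an alpha subunit of the G12/13 class, rose from 27.4 to 39.3 CPM with NRF2 (log2 fold change 0.52, SE 0.11, edgeR adjusted p = 0.00874), and RHOB, a small GTPase of endosomes, fell from 38.5 to 29.4 CPM (-0.39, SE 0.09, adjusted p = 0.0112). The GNA13 call held without any library, and that of RHOB was lost without empty vector replicate 2 (adjusted p = 0.0727). GNAQ had 126 to 258 counts, GNA11 393 to 769, GNAI2 754 to 956 and GNAI3 1144 to 1571, and none of these was called. Of 26 genes of desensitisation and trafficking all were tested. With NRF1, NRF2 and NRF3, 1, 2 and 0 were called, beside 1.75%, 10.5% and 0.0264% of all genes. RGS2, which speeds the shut-off of Gq, fell from 261 to 312 counts with empty vector to 120 to 184 with NRF1 (-0.84, SE 0.16, adjusted p = 0.0148) and to 175 to 187 with NRF2 (-0.68, SE 0.15, adjusted p = 0.0108). Its call with NRF1 was lost without any of the 3 empty vector libraries or NRF1 replicate 3, and that with NRF2 without empty vector replicate 2 (adjusted p up to 0.105 and 0.0541). TMED10, a cargo receptor of the early secretory pathway, rose by 0.27 with NRF2 (SE 0.08, adjusted p = 0.0345), and 7 of 12 single-library removals ended that call (adjusted p up to 0.153). The arrestin genes ARRB1 and ARRB2 had 147 to 234 and 1684 to 2067 counts, and neither was called.

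Early response genes that receptor signalling induces did not move together. Of 31, 21 were tested, and 2, 4 and 0 were called, with list medians of -0.25, 0.06 and -0.04 on the log2 scale. With NRF2, FOS rose from 1.44 to 2.76 CPM (log2 fold change 0.93, SE 0.24, edgeR adjusted p = 0.0183), HBEGF by 0.78 (SE 0.21, adjusted p = 0.0258) and EGR1 by 0.61 (SE 0.18, adjusted p = 0.0348), while JUN fell from 178 to 118 CPM (-0.59, SE 0.11, adjusted p = 0.00280). FOS and JUN encode AP-1 subunits, EGR1 a zinc finger factor and HBEGF an EGF receptor ligand. The JUN call with NRF2 held without any library, and those of FOS, HBEGF and EGR1 were each lost without empty vector replicate 2 and with 2 to 4 other removals (adjusted p up to 0.0916, 0.122 and 0.143). With NRF1, JUN fell to 127 CPM (-0.49, adjusted p = 0.0338) and DUSP1, a MAP kinase phosphatase, fell by 0.40 (SE 0.08, adjusted p = 0.0195), and each call was lost without any one of the 6 libraries compared (adjusted p up to 0.168 and 0.107). The share called with NRF2, 4 of 21, stands beside 10.5% of all genes, and the count was 1 without empty vector replicate 2. The 2 of 21 called with NRF1 stand beside 1.75% of all genes.

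Receptors related to the family were mostly silent. Of 36 related G protein-coupled receptors 5 could be tested and 9 had no count in any library, among them CYSLTR1. P2RY2, a receptor for extracellular nucleotides, was called with NRF2, where it rose from 2.84 to 5.98 CPM (log2 fold change 1.07, SE 0.15, edgeR adjusted p = 0.000283), and the call held without any library. With NRF1 it was at 0.65 (adjusted p = 0.0502). P2RY1, P2RY11, LPAR6 and OXGR1 were not called. The 1 of 5 called with NRF2 stands beside 10.5% of all genes. P2RY2 had 32 to 84 counts over all libraries, where F2RL2 was near 0 in 9. P2RY6, another nucleotide receptor and too low to be tested, had 4, 4 and 8 counts in the NRF2 libraries and 0 in the other 9. With no filter on low counts 3 of the list's receptors were called with NRF2.

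**Figure D5:**
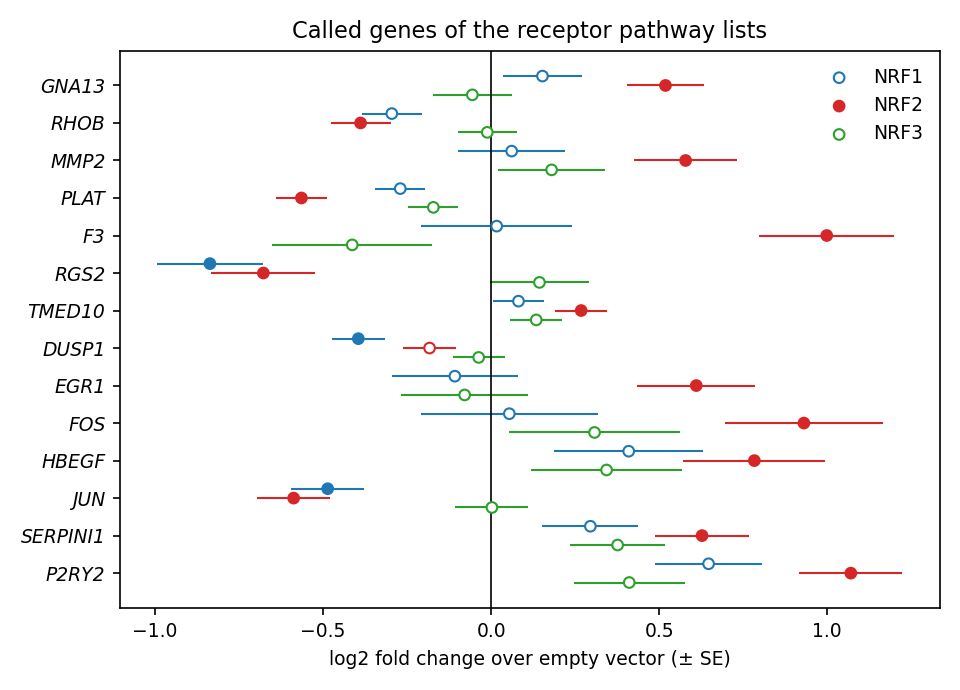
Log2 fold change over empty vector (horizontal axis, bars are SE of the edgeR fit) of the 14 genes called in the receptor pathway lists, with NRF1, NRF2 and NRF3 in different colours and 3 libraries per condition. Filled points passed an adjusted p of 0.05, and they are mostly those of NRF2, on both sides of 0, with none for NRF3.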

How the data were processed

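RNA was sequenced from 12 libraries of HEK293T cells, 3 for each of 4 conditions. Per the labels and methods, the authors aligned reads to GRCh37.p13 and estimated abundance in DNASTAR Lasergene. Neither the sources nor the labels used here give its version, annotation or strand setting. As deposited, the values are estimated counts (expected counts) with no normalization between libraries, and 0.009 for no count (45.8% of values). The study's supplement heads the same kind of values RPKM. They were treated as counts because most values of at least 0.5 were whole (5.96% were not) and totals differed between libraries. If they were scaled by length, the counting intervals, CPM and CPM per kilobase here would not hold as named. Columns named Vehicle were taken as empty vector. Values were rounded to whole counts. With R 4.3.3, genes passing filterByExpr (minimum count 10) were scaled by TMM (trimmed mean of M values) and fitted in a 4-condition edgeR 4.0.16 quasi-likelihood model, two-sided, with Benjamini-Hochberg adjustment over all genes and a threshold of 0.05. The code was tested on simulated data. An unequal variance test, named in the study's methods, was run here on log2 CPM with Benjamini-Hochberg adjustment as an alternative, with DESeq2 1.42.0, other scalings, other filters, a replicate block and each library left out.

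The members and the gene lists were chosen with earlier results of these data known. Named genes were the receptors, the neighbours of F2RL2, the 10 genes most correlated with it (log2 CPM, prior count 2), those meeting the switched-on rule, and up to 4 called genes per list and comparison. Others were named for their role or after their values were seen. Exon lengths came from GENCODE v29 and promoters from RefSeq (GRCh38.p14), and no coordinates were converted. Some results for single genes and promoters are not reported here. Counting intervals cover counting error only. Total counts per library were 13452524 to 14014316, which limits low genes such as F2RL2 in 9 libraries.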

Additional observations from a re-analysis of the deposited data

Results flagged for a closer look

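Of the genes in the receptor pathway lists that were called against empty vector, 8 also differed in a direct edgeR test between 2 transgenes, by log2 fold change and adjusted p over all genes. Over all genes, 5.17% were called in NRF2 against NRF3, 1.25% in NRF2 against NRF1 and 0.396% in NRF1 against NRF3. The 8 were selected by calls that used the same transgene libraries, which favours a further difference, so their number is a description. In NRF2 against NRF3, GNA13 was higher by 0.57 (adjusted p = 0.00721), F3 by 1.41 (adjusted p = 0.000632), EGR1 by 0.69 (adjusted p = 0.0321) and P2RY2 by 0.66 (adjusted p = 0.0145). In the same comparison RHOB was at -0.38 (adjusted p = 0.0206), PLAT at -0.39 (adjusted p = 0.00543), RGS2 at -0.82 (adjusted p = 0.00435) and JUN at -0.59 (adjusted p = 0.00409). In NRF2 against NRF1, F3 was higher by 0.98 (adjusted p = 0.0155). In NRF1 against NRF3, RGS2 was at -0.98 (adjusted p = 0.0134). F2R and F2RL1 were not among these, and F2RL2 was not tested because its values chose the family.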

How the results depend on the processing

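F2R and F2RL1 stayed uncalled in all 120 values over 10 settings and in all 144 values with a library left out, with no log2 fold change beyond 0.178. The sign of near-0 values turned: F2R in NRF1 against empty vector was -0.0147 under upper-quartile scaling and F2RL1 in NRF1 against NRF3 was 0.0025 with total counts only. With each library left out, F2R ranged from -0.0620 to 0.0518 in NRF1 against empty vector, -0.109 to 0.0125 in NRF3 against empty vector, -0.00733 to 0.107 in NRF2 against NRF1 and -0.00659 to 0.114 in NRF1 against NRF3, and F2RL1 from -0.0959 to 0.0260 in NRF1 against NRF3. The number of genes called was less stable. In NRF1 against empty vector 265 became 429 with DESeq2, 412 with no filter on low counts, 1951 in a fit of only the 2 groups compared, 158 with a replicate block, 3 by the unequal variance test and 33 (without NRF1 replicate 3) to 597 (without NRF3 replicate 2) with a library left out. In NRF2 against empty vector 1588 became 2730 in a fit of only those groups, 82 by the unequal variance test and 786 (without empty vector replicate 3) to 2251 with a library left out. In NRF3 against empty vector 4 became 8 with DESeq2 and 0 by the unequal variance test. In NRF2 against NRF1 189 became 294 with no filter, 311 with only those groups, 1 by the unequal variance test and 127 (without NRF1 replicate 2) to 320 with a library left out. In NRF2 against NRF3 782 became 280 with only those groups, 8 by the unequal variance test and 347 (without NRF3 replicate 1) to 3083. In NRF1 against NRF3 60 became 128 with DESeq2, 35 with total counts only, 125 with no filter, 5 with only those groups, 7 with a replicate block, 1 by the unequal variance test and 3 (without NRF1 replicate 2) to 1347. The highest of each of these ranges came without NRF3 replicate 2, and the cause was not tested. NRF2 had 16 and 1 switched-on genes under the looser and stricter limits and empty vector 1 and 0. For the list counts and the list genes, settings beyond DESeq2 and no filter were added after seeing the data. The unequal variance test lost all 16 calls, and the replicate block lost TMED10, EGR1 and HBEGF with NRF2 and JUN with NRF1. Replicate numbers did not pair the libraries (correlation of deviations -0.258 to 0.0840 over 18 pairs), and the replicate block left F2R and F2RL1 uncalled. Depth limits F2RL3 and the lower level of F2RL2.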
